A study of Mus musculus with 64 samples.

Results

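The miRNAs described are 6 mature forms from mouse liver, listed in the files as mmu-mir-592-5p, mmu-mir-149-5p, mmu-mir-298-5p, mmu-mir-674-5p, mmu-mir-152-3p and mmu-mir-137-3p. They were picked because their liver values depended most clearly on the group of the animal, and only the rows with the annotated 5′ start were taken. All 6 were among the 1941 small RNA features of the liver table, of which 1282 had signal in some library, and all 6 had a mean liver signal of at least 10, as had 837 features in all. The members were thus chosen by their normalized liver signal in the 4 groups, so every liver difference of theirs between groups is given below as a description without a test. The tests are on the same miRNAs in gonadal adipose tissue and on host and target genes in mRNA.

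The animals were 129S6/SvEvTac mice, either wild type (WT) or humanized, which here means that they express the human ortholog of AS3MT, the enzyme that methylates arsenic. All groups, controls included, were exposed to inorganic arsenic at 400 ppb for 4 weeks, so there was no unexposed group. Ages and the number of founder lines are not given in the sources used here. Liver small RNA came from 5 WT males, 6 humanized males, 5 WT females and 5 humanized females, and adipose small RNA from 4, 5, 5 and 6 in the same order. mRNA came from 3 libraries per group in each tissue, with 2 for WT males in adipose tissue. Library names come in 2 forms, with the animal tag first (9 liver libraries) or the group first (12 liver libraries), and both forms hold all 4 groups. Animal tags repeat across tissues (18 tags are shared), so liver and adipose values of small RNA are not independent.

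A microRNA is a short RNA cut from a hairpin precursor. Loaded into an Argonaute protein, it pairs with messenger RNAs mainly through its seed, bases 2 to 8 from its 5′ end, and lowers their output. A start shifted by 1 base moves the seed and with it the set of matching messages. Rows whose name ends in _+_1 are read here as such a shift, a reading the files do not spell out. Many microRNA hairpins lie inside protein-coding genes and can be cut from the transcript of that host gene.

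The mature sequences follow, 5′ to 3′ with the seed in capitals, since the members share no seed and the shift of miR-592 changes its seed. They are from RefSeq (GRCm38.p6), where all 6 members were matched by name.
miR-592-5p: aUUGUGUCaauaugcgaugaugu
miR-592-5p, start shifted by 1: uUGUGUCAauaugcgaugaugu
miR-149-5p: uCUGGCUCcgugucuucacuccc
miR-298-5p: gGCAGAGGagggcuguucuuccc
miR-674-5p: gCACUGAGaugggaguggugua
miR-152-3p: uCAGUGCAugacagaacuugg
miR-148a-3p: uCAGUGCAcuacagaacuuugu
miR-148b-3p: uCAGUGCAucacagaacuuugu
miR-137-3p: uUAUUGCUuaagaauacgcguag

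The 6 members carried 6 distinct seeds. Only miR-152-3p had relatives with its seed in the files, miR-148a-3p and miR-148b-3p, shown above for that reason. In GRCm38.p6 the miR-592 hairpin is at chr6:27936655-27936750 (minus strand) within Grm8, a glutamate receptor gene on the same strand. The miR-149 hairpin is at chr1:92850378-92850443 (plus strand) within Gpc1, a cell-surface heparan sulfate proteoglycan gene whose strand was not read here. The miR-152 hairpin is at chr11:96850393-96850465 (plus strand) within Copz2, a coatomer subunit gene on the same strand. The miR-298 hairpin is at chr2:174267504-174267585 (minus strand), 378 bases from the miR-296 hairpin and next to Gnasas1, in the imprinted Gnas region. The miR-674 hairpin (chr2:117185127-117185226, plus strand) and the miR-137 hairpin (chr3:118433857-118433929, plus strand) lie in no listed gene. Whether a hairpin lies in an exon or an intron was not read here.

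Liver libraries held 5819451 to 16647090 listed steps of signal and adipose libraries 10772191 to 34352654, counted here as steps: within a small RNA library low values are whole multiples of a smallest step, which may stand for 1 read. The small RNA tables list nothing under 10 steps, so a small RNA value of 0 means below 6.65 to 19.8 units of signal in liver, depending on the library. As3mt, the mouse gene, checked the genotype labels: liver mRNA signal was 2624 to 6111 in WT and 0 to 5.98 in humanized libraries. In adipose tissue it was 1218 to 1737 and 0 to 5.34. The hepatocyte marker miR-122-5p took 42.1% to 54.8% of the signal in every liver library. Within liver, WT female replicate 2 stood apart, with the highest miR-122 share. Overlaps of the sexes in members that rest on it are given with and without it.

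The liver levels of the members spanned a wide range. By mean signal miR-152-3p ranked 45 of the 1282 features with signal, miR-137-3p 290, miR-674-5p 301, miR-149-5p 409, miR-592-5p 706 and miR-298-5p 792. Over all 837 liver features limma called 9.2% between males and females and 0% for genotype, and the members' own calls are not given, since these values chose them. At an unadjusted p under 0.05 by genotype there were 46 features in males, 25 in females and 26 with the sexes joined. These 5 comparisons per table use the same libraries, so they are not independent of each other.

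miR-592-5p with the annotated start was higher in male liver. Its signal was 40.4, 28.9, 74.2, 53.6 and 47.6 in WT males and 15.3, 26.7 and 33.4 (lowest, median and highest) in humanized males. In females it was listed at 0 in 9 of 10 libraries, the exception being WT female replicate 2 at 13.3. The lowest listed value was 6.65 to 12.1 in WT female and 7.07 to 9.89 in humanized female libraries, so a 0 does not show absence. Its shifted form, described next, was listed in all 10. Males and females did not overlap, with or without that library. WT males (48.95 ± 16.8, SD, n = 5) were above humanized males (25.8 ± 6.62, SD, n = 6), though their ranges overlapped.

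The row read as miR-592-5p with a start 1 base later held most of the hairpin's liver signal. It made up 96.9% of the hairpin's signal over all liver libraries, and was 18.1 to 55.5 times the annotated form in the 12 libraries that listed both (median 27.5). Its signal was 732, 632, 2180.2, 1416 and 1963 in WT males. Humanized males stood at 563, 827 and 1029.9 (lowest, median and highest). WT females had 32.0, 324, 28.8, 40.9 and 67.2, and humanized females 46.1, 36.6, 96.4, 89.0 and 151. Every male library was above every female one, and without WT female replicate 2 the highest female value was 151. The male minus female difference of log2(signal + 1) was 3.89 for this form and 4.74 for the annotated one, the latter against females mostly at 0. Within the libraries named group first the differences were 4.20 and 5.25, and within those named tag first 3.41 and 3.97. WT males exceeded humanized males only in the group-first libraries, at 1416 to 2180.2 against 805 to 1029.9. In the tag-first libraries WT males had 632 and 732 and humanized males 563 to 893.

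**Figure D1:**
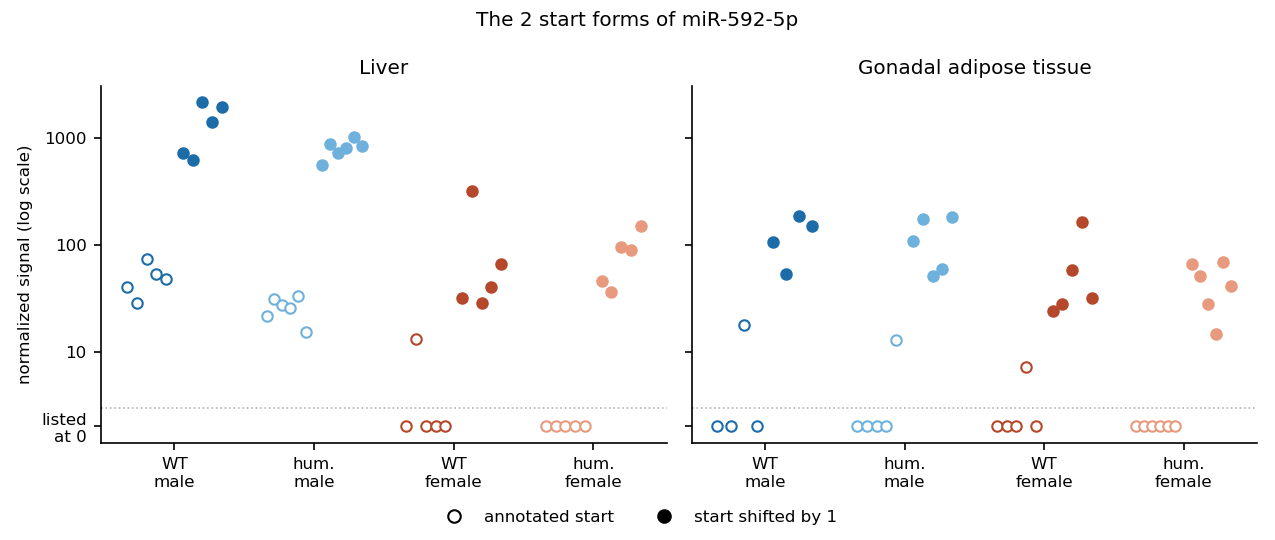
Normalized signal (log scale, values listed at 0 below the dotted line) of miR-592-5p with the annotated start (open) and with the start shifted by 1 (filled), 1 point per library, by group in liver and adipose tissue. The shifted form is the abundant one, and in liver every male library (563 or more) lies above every female library (324 or less).

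miR-149-5p, whose hairpin lies within Gpc1, was also higher in male liver. Signal was 64.6, 282.7, 93.0, 91.7 and 174 in WT males and 91.3, 161 and 229.8 (lowest, median and highest) in humanized males. WT females had 34.1, 27.8, 38.6, 27.5 and 17.3, and humanized females 23.5, 22.8, 27.5, 20.8 and 55.8. The sexes did not overlap, and the genotypes overlapped within each sex. Means were 151 ± 65.7 (SD, n = 11) in males and 29.6 ± 11.1 (SD, n = 10) in females, a log2 difference of 2.25. It was 2.17 in the group-first and 2.38 in the tag-first libraries. No other arm or shifted row of this hairpin had signal in liver. With every liver library kept, 3 (0.358%) of all 837 features had male and female ranges that did not overlap. These were miR-149-5p and both start forms of miR-592-5p. The members were picked on these liver values, so the count describes them and gives no support. miR-592-5p with the annotated start reached the filter through males alone, with a mean of 36.3 against 1.33 in females.

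miR-298-5p, which shares its genomic neighbourhood with miR-296, was near the lower limit of listing in liver. WT males had 29.6, 15.8, 25.4, 10.4 and 18.1. Of the 6 humanized males 5 were listed at 0, and the remaining one, replicate 5, had 20.3. WT females had 21.3, 0, 22.5, 10.4 and 19.9, and humanized females 19.1, 19.8, 9.95, 15.8 and 10.6. Humanized males were thus the group in which it was mostly unlisted, but replicate 5 lay inside the range of every other group. Where it was listed, miR-298-5p was 11 to 33 of these steps. The value below which nothing is listed was 8.43 to 19.8 in humanized males and 8.65 to 16.4 in WT males, so in some of these libraries a level like that of the lower WT males would not have been listed. The fitted difference in males, -3.50, depends on the pseudocount of 1, and was -1.26 with a pseudocount of 10. On the deposited regularized log2 scale after batch correction it was -0.22. miR-296-3p and miR-296-5p averaged 3.83 and 0.497 in liver and did not reach the filter.

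miR-674-5p was lower in male liver and, within each sex, lower in WT. WT males had 159, 185, 159.6, 135 and 166, and humanized males 164, 197 and 266 (lowest, median and highest). WT females had 284, 225, 242, 212 and 275, and humanized females 325, 311, 321, 271 and 279.9. In order of the means the groups were WT males (161 ± 18.0), humanized males (209 ± 36.1), WT females (247 ± 31.0) and humanized females (302 ± 24.8). Each group overlapped its neighbour in that order. The male minus female log2 difference was -0.58, and the humanized minus WT difference was 0.36 in males and 0.29 in females. The other arm, miR-674-3p, was as abundant as the 5p arm (44.6% and 45.98% of the hairpin's signal) and followed the same order, with means of 161, 203, 243 and 283.2. Its differences were -0.47 by sex, 0.37 in males and 0.31 in females. The 5p form shifted by 1 base (8.57% of the hairpin's signal) did not follow throughout. It differed by -1.01 by sex and 0.26 in females, but by -0.25 in males.

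miR-152-3p, which shares its seed with miR-148a-3p, was the most abundant of the 6 and differed least. WT males had 12969.5, 14380.3, 12505, 13547 and 11977, and humanized males 10610.1, 13033 and 15864 (lowest, median and highest). WT females had 16529, 15535, 16485, 20193 and 17613, and humanized females 17804, 16540.3, 15956, 18878 and 16189.9. Males (13134 ± 1708, SD, n = 11) were below females (17172 ± 1455, SD, n = 10). The ranges overlapped, as humanized male replicate 4 (15864) lay above WT female replicate 2 (15535). Without WT female replicate 2 the lowest female value was 15956 and the sexes did not overlap. Within each form of the library name they did not overlap. The log2 difference of -0.39 was the same to 2 decimals within each name form, and the genotype difference was 0.00 in males and -0.01 in females. Of the relatives with the same seed, miR-148a-3p was far more abundant (214004 ± 70804 in males, 256087 ± 50245 in females) and its ranges overlapped. miR-148b-3p stood at 6086 ± 1012 and 6615 ± 1419. The fitted sex differences were -0.34 and -0.09, so that the seed as a whole was dominated by miR-148a-3p.

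miR-137-3p, best known from neurons, was lowest in WT males. These had 56.5, 104, 272, 151 and 161, and humanized males 79.2, 246 and 401 (lowest, median and highest). WT females had 146, 398, 338, 384 and 430.2, and humanized females 183, 138, 419, 307 and 339. All 4 groups overlapped. Values followed the form of the library name as well: in males they were 56.5 to 224 in tag-first and 151 to 401 in group-first libraries, and in females 138 to 398 and 307 to 430.2. The sex difference of -0.73 was -0.85 within tag-first and -0.59 within group-first libraries. The humanized minus WT difference was 0.76 in males and -0.31 in females. The 3p form shifted by 1 base was lower, at 18.5 ± 14.9 in males (n = 11) and 44.8 ± 16.8 in females (n = 10).

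**Figure D2:**
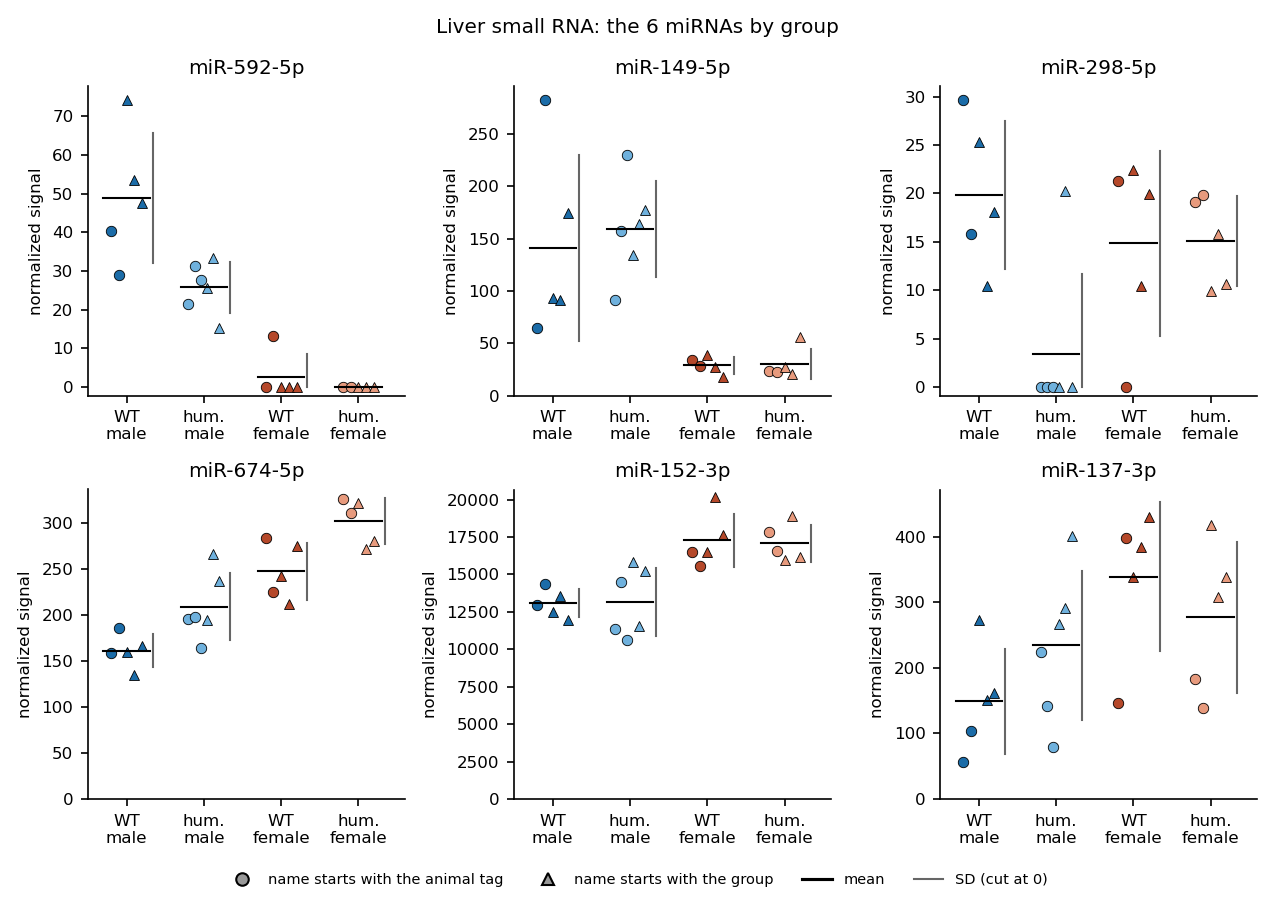
Normalized liver signal of the 6 miRNAs (1 point per library, circles for names with the animal tag first and triangles for names with the group first, bars for mean and SD) in the 4 groups. miR-592-5p and miR-149-5p separate males from females, miR-298-5p is listed at 0 in 5 of 6 humanized males, and miR-674-5p, miR-152-3p and miR-137-3p are lower in males.

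Across the 21 liver libraries, after the mean of each name form was removed, the members fell into opposite patterns. miR-592-5p and miR-149-5p correlated with each other (Pearson r = 0.82, n = 21) and inversely with miR-152-3p (-0.80 and -0.74). miR-674-5p correlated with miR-592-5p at -0.83 and with miR-152-3p at 0.62. miR-298-5p correlated with no member beyond 0.39 in size. These values describe libraries that share sex, genotype and tissue, so a sex difference alone gives a correlation. Among all other rows with the annotated start, those most like miR-592-5p were miR-21-5p (r = 0.85), miR-455-5p (0.84) and miR-99a-5p (0.83). Most like miR-149-5p were miR-592-5p (0.82), miR-339-5p (0.74) and miR-203-5p (0.70). miR-107-3p was closest to miR-152-3p (0.90), followed by miR-148b-5p (0.85) and miR-130a-3p (0.84). For miR-674-5p they were miR-3105-3p (0.74), miR-107-3p (0.70) and miR-28-5p (0.67). For miR-137-3p they were miR-378-5p (0.70), miR-425-3p (0.70) and miR-3105-3p (0.66). miR-298-5p had no row above 0.61, the first being miR-542-5p.

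Markers of other cell types were read in the same liver libraries. Of 33 marker miRNAs in 8 lists 29 could be tested in liver, and 1 of them differed between the sexes, the blood cell marker miR-142-5p (-0.65, limma adjusted p = 0.0336), where 9.2% of features did. Others of the blood cell list ran the other way. The red cell markers miR-451, miR-144-3p and miR-486-5p stood at 0.57, 0.77 and 0.80, not called (limma adjusted p = 0.162, 0.0910 and 0.0972). The median difference of that list was 0.05. The 8 blood cell markers summed to 9407 to 48761 in males and 11330 to 20165 in females, with ranges that overlapped. The 5 mesenchymal markers summed to 24759 to 177984 in males and 24383 to 56457 in females, and the 5 epithelial markers to 1856 to 20729 and 3893 to 9687. The neural markers miR-124-3p and miR-138-5p and the pancreatic marker miR-216a-5p were listed at 0 throughout liver. Whether cell makeup had a part in the members' liver differences was not tested.

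Whether the members also varied by group outside liver was tested in gonadal adipose tissue. In that tissue 5 of the 6 passed the filter, miR-592-5p being listed in only 3 of 20 libraries. None of the 5 differed between males and females, where 10% of the 1298 features did (limma, adjusted p under 0.05), and 1 had an unadjusted p under 0.05. Likewise none differed by genotype in males (0.616% of features called), in females (0%) or with the sexes joined (0%), nor did a genotype difference depend on sex (0%), and none had an unadjusted p under 0.05. In none of 29 alternative settings was a member called. In bulk tissue fewer cells of a type and less RNA per cell cannot be told apart.

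The miRNA that came nearest was miR-149-5p, higher in adipose libraries of males by 0.53 ± 0.25 (SE; limma adjusted p = 0.168). Its signal was 252, 373, 653 and 805 in WT males and 512, 230.5, 301, 1017 and 434 in humanized males. WT females had 136, 395, 300.3, 799 and 344, and humanized females 162, 314 and 520.0 (lowest, median and highest). All groups overlapped, and the 95% interval of the sex difference was 0.01 to 1.05. Liver had 2.25, from the values that chose this member and a separately normalized table. Here and below the tissues are set side by side without a test between them.

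miR-298-5p varied widely in adipose tissue, from 252 to 3038. WT males had 1408, 268, 684 and 2531, and humanized males 1341, 536, 339, 702 and 1414. WT females had 809.9, 3038, 828, 1603 and 863, and humanized females 252, 571 and 1429.5 (lowest, median and highest). The humanized minus WT difference was -0.23 ± 0.65 in males and -1.12 ± 0.58 in females, with limma adjusted p of 0.922 and 0.998. The male interval ran from -1.59 to 1.13. miR-298-5p and the adjacent miR-296-3p rose and fell together over the 20 adipose libraries (r = 0.92 after the name form was removed), as a description of libraries that share group and depth.

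miR-674-5p and miR-152-3p differed little between the groups of animals in adipose tissue. miR-674-5p had 1104, 862, 907 and 1341 in WT males, 1235, 853, 803, 980.4 and 1221 in humanized males, and 819.8, 965, 726, 1001 and 1086 in WT females. Humanized females had 738, 977 and 1213 (lowest, median and highest). Its sex difference was 0.13 ± 0.11 (95% interval -0.11 to 0.37; limma adjusted p = 0.474), where liver had -0.58. miR-152-3p ranged from 51341 to 87208, with a sex difference of -0.01 ± 0.08 (interval -0.18 to 0.16; limma adjusted p = 0.942), where liver had -0.39. Its share of the listed signal followed the form of the library name. It was 4123 to 6035 ppm in group-first and 2734 to 3824 ppm in tag-first libraries. In males miR-674-3p was 771 ± 115 in 4 WT libraries and 1070.4 ± 225 in 5 humanized ones without overlap, but it was not called (0.44 ± 0.16, limma adjusted p = 0.19), and 3.85% of adipose features had male genotypes without overlap.

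miR-137-3p was close to the limit of listing in adipose tissue, at 0 in 8 of 20 libraries and at most 63.9. Its sex difference of -1.20 ± 0.91 had an interval from -3.10 to 0.71, where liver had -0.73. miR-592-5p with the annotated start was listed in WT male replicate 11 (17.9), humanized male replicate 13 (12.9) and WT female replicate 10 (7.13).

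**Figure D3:**
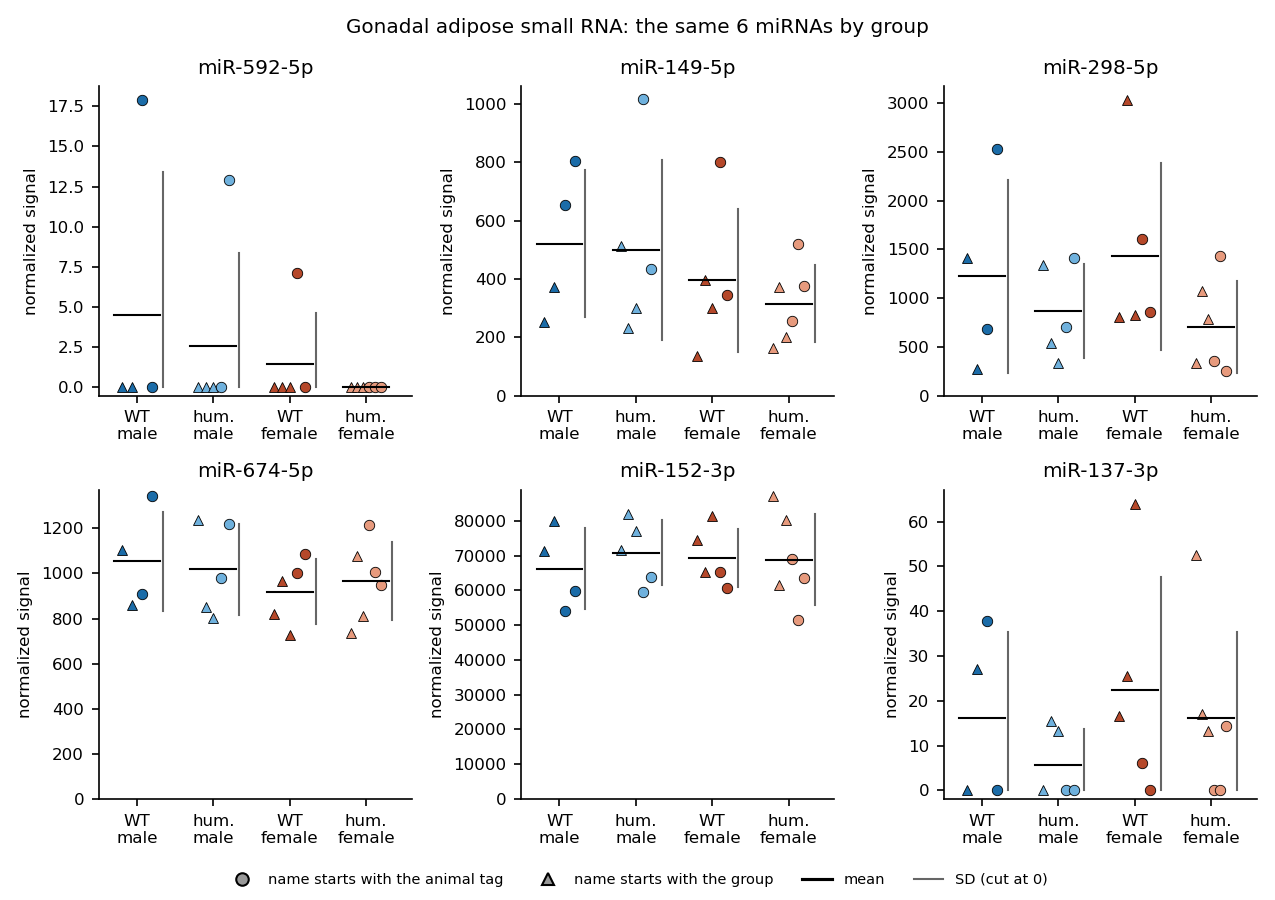
Normalized adipose signal of the same 6 miRNAs (1 point per library, circles for names with the animal tag first and triangles for names with the group first, bars for mean and SD) in the 4 groups. The groups overlap in every panel, and miR-592-5p is listed at 0 in 17 of 20 libraries.

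The shifted form of miR-592-5p, which is not a member, was higher in adipose libraries of males. It had 108, 54.1, 187 and 150.4 in WT males and 109.8, 177, 50.8, 59.6 and 184 in humanized males. WT females had 24.3, 28.3, 58.4, 166 and 31.6, and humanized females 14.8, 46.3 and 68.9 (lowest, median and highest). The ranges overlapped. The difference was 1.29 ± 0.38 (limma adjusted p = 0.0384, 95% interval 0.50 to 2.09), where liver had 3.89, and 10% of adipose features were called. The call was lost in 18 of 29 alternatives, while the difference stayed between 0.55 and 1.51. It was lost without WT male replicate 11 (1.20, limma adjusted p = 0.0682), without WT males 6 or 12, humanized males 7, 8 or 13, WT females 6, 7 or 11, or humanized females 8, 9 or 12 (1.13 to 1.28, limma adjusted p from 0.0510 to 0.0732). It was 1.12 in group-first and 1.37 in tag-first libraries, not called in either (limma adjusted p = 0.165 and 0.399). miR-122-5p was called higher in males as well (1.04, limma adjusted p = 0.0292). WT male replicate 11 had the highest adipose signal of both, with miR-122 at 683904 against 33874 to 258777 in the others. Humanized male replicate 13 had nearly as much of the shifted form (184) with miR-122 at 46774. WT female replicate 10 had 166 with miR-122 at 60732. For WT male replicate 11, an amount of liver RNA at its group's mean level that holds all of that library's miR-122 also holds 8.67 ppm of the shifted form. This is as ppm of the listed signal, and 9.46 ppm was measured. For WT male replicates 6, 9 and 12 the same sum gave 3.74, 1.86 and 2.14 ppm, where 6.22, 3.00 and 8.42 was measured. For the 5 humanized male libraries the same sum gave 0.461 to 1.26 ppm, where 3.31 to 11.0 was measured, and for the 11 female libraries 0.0321 to 0.162 ppm, where 0.813 to 8.82 was measured. These sums use group means, although 18 animal tags are shared with liver. Liver libraries with the tags of adipose WT males 6, 9, 11 and 12 held 180, 158, 70.5 and 54.1 ppm of the shifted form. A sum by animal was not run. The red cell markers miR-144-3p (1.60) and miR-486-5p (1.28) and the endothelial marker miR-126-5p (0.36) were also called higher in males in adipose tissue, and the neural marker miR-138-5p lower (-0.90). Over lists, the 8 blood cell markers summed to 94679 to 519250 in males and 56499 to 167006 in females, and the 3 hepatocyte markers to 60626 to 783392 and 50713 to 204741. Other lists reached higher sums in females, the 5 epithelial markers 133703 against 6987 in males, the 2 pancreatic markers 11374 against 1468 and the 2 germ line and ciliated markers 114421 against 5238, and no marker of these 3 lists was called by sex. The part of these cells in the result was not tested.

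Levels in liver and adipose tissue were also set side by side. The tables were normalized separately, so levels are given as ppm of the summed signal listed for a library, averaged over libraries, with no test. In liver and adipose tissue miR-298-5p stood at 1.14 and 63.0 ppm, miR-149-5p at 8.28 and 25.1, miR-674-5p at 20.2 and 59.6, and miR-152-3p at 1329 and 4209.7. The other two were higher in liver, miR-137-3p at 21.8 against 0.939 and miR-592-5p at 1.70 against 0.103. miR-122-5p takes up a large part of the liver total and 0.205% to 3.47% of the adipose total, which lowers every other share in liver.

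The host genes were measured in separate mRNA libraries, whose animals are not named in the labels, so they cannot be matched to the small RNA libraries by animal. Of the 6 host or neighbour genes, 5 passed the filter in liver mRNA. Of these, 3 differed between males and females (limma, adjusted p under 0.05), 2 higher and 1 lower in males, where 9.59% of all 15180 genes were called. In each of these 3 the direction was that of its miRNA in liver, which was known from the values that picked the members. The neighbour genes Gnas and Dpyd, not called, leaned higher in males, where liver miR-298-5p (-1.12) and miR-137-3p (-0.73) were lower. None of the 5 was called for genotype in males (0.0329% of genes called), in females (0.0198%) or with the sexes joined (0.0329%), nor did a genotype difference depend on sex (0.00659%). At an unadjusted p under 0.05 was 1 of them in males, none in females and 1 with the sexes joined. Male and female ranges did not overlap for 5.65% of all genes, among them all 3 called hosts.

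Grm8, which holds miR-592, had a liver mRNA signal of 156, 199.9 and 242 in WT males and 188, 178 and 95.3 in humanized males. It was 5.39, 0 and 9.29 in WT females and 18.0, 11.1 and 7.55 in humanized females. Every male library was above every female one, as for miR-592. The difference of log2(signal + 1) was 4.59 ± 0.52 (SE; limma adjusted p = 0.000491), and it was 5.07 among the polyA libraries and 4.11 among the ribosome-depleted ones. With a pseudocount of 10 it was 3.35. In adipose mRNA Grm8 was 0.983 and 5.31 in WT males, 1.02, 0 and 3.88 in humanized males and 0 in all 6 female libraries, too low to be tested.

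Gpc1, which holds miR-149, had 1000.5, 1068 and 2244 in WT males and 1591, 912 and 2069 in humanized males. WT females had 84.4, 164 and 625, and humanized females 137, 253 and 120.2. The sexes did not overlap, although WT female replicate 3 was well above the other females. The difference was 2.93 ± 0.34 (limma adjusted p = 0.000581), with 2.52 among polyA and 3.33 among ribosome-depleted libraries. In adipose mRNA Gpc1 was more abundant, from 2860.3 to 13716, with a sex difference of 0.69 ± 0.33 that was not called (limma adjusted p = 0.432, 95% interval -0.05 to 1.43).

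Copz2, which holds miR-152, had 1033, 1362 and 1271 in WT males and 1398, 1598 and 1473 in humanized males. WT females had 1609.6, 1653 and 1726, and humanized females 1739, 1858 and 2125. Males were lower by a small step without overlap, at -0.40 ± 0.10 (limma adjusted p = 0.0287), close in size to the -0.39 of miR-152-3p. The call was lost when any of 7 single libraries was left out (adjusted p up to 0.0734), while the difference stayed between -0.44 and -0.35. Those libraries were WT male 1, humanized males 1 and 3, WT females 1, 2 and 3 and humanized female 3. In adipose mRNA the Copz2 difference was -0.06 ± 0.10 (limma adjusted p = 0.818).

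Of the neighbours without a hairpin inside, Gnas, which encodes the stimulatory G protein alpha subunit and lies near miR-298, differed by 0.27 ± 0.10 and was not called (limma adjusted p = 0.12). Dpyd, a pyrimidine-degrading enzyme gene near miR-137, differed by 0.04 ± 0.15 (limma adjusted p = 0.900). Gnasas1, the antisense transcript next to miR-298, was at 0 to 1.66 in liver and was not tested. None of the 4 host or neighbour genes tested in adipose mRNA was called between the sexes, where 0.42% of 17394 genes were.

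**Figure D4:**
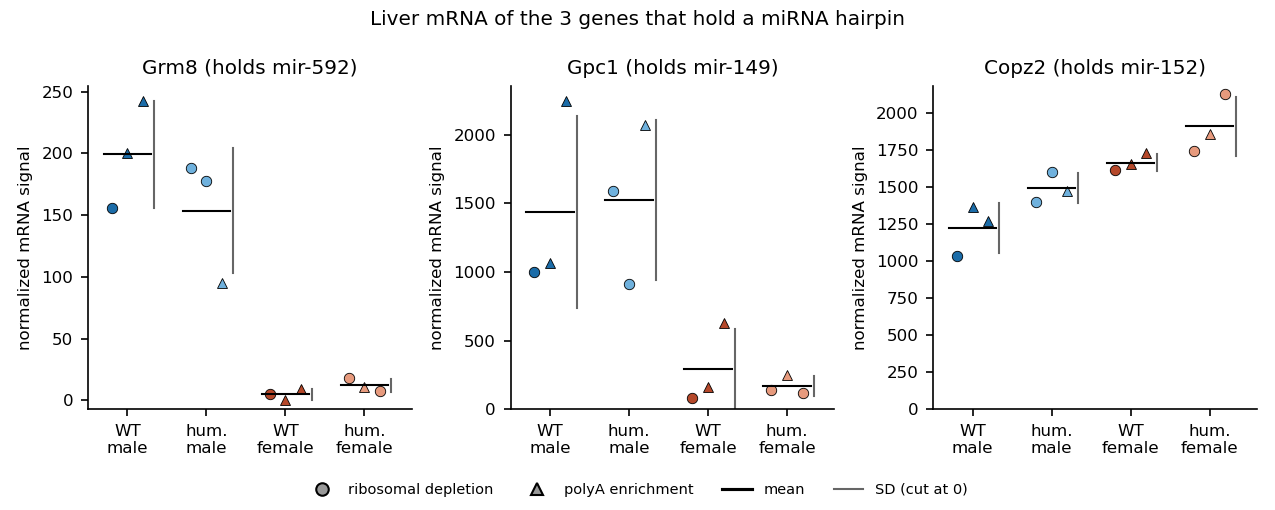
Normalized liver mRNA signal of Grm8, Gpc1 and Copz2 (1 point per library, circles for ribosomal depletion and triangles for polyA enrichment, bars for mean and SD) in the 4 groups. Grm8 and Gpc1 are high in males and low in females, and Copz2 is lower in males, with no overlap of the sexes in any of the 3.

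Reported targets of the members were read in the same liver mRNA libraries. All 10 passed the filter, and 2 differed between males and females, 1 in each direction, against 9.59% of all genes. Their median difference was 0.00, and that of all genes tested was 0.01. Foxo1, a transcription factor gene of fasting metabolism and a reported target of miR-592, was lower in males (-0.53 ± 0.15, limma adjusted p = 0.0465). It had 4553, 5689 and 5754 in WT males, 4305, 3731 and 3509 in humanized males, 6145, 6962 and 6028 in WT females and 9453, 5863 and 5332 in humanized females. E2f1, a cell cycle transcription factor gene and a reported target of miR-149, was higher in males (0.92 ± 0.25, limma adjusted p = 0.0439). It had 188, 198 and 396 in WT males, 223, 281 and 423 in humanized males, 154, 180.0 and 145 in WT females and 182, 145 and 79.7 in humanized females. Neither call was firm: Foxo1 kept it in 6 and E2f1 in 5 of 18 alternatives, with adjusted p up to 0.106 and 0.103. Foxo1 lost its call without any 1 of the libraries other than humanized females 1 and 3, and E2f1 without any 1 other than humanized female 1 and WT male 2. The remaining 8 were Akt1, Bace1, Dnmt1, Abca1, Kdm1a, Cdk6, Mitf and Cdc42, with sex differences from -0.16 to 0.17. No target was called for genotype in liver in any of the comparisons.

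In adipose mRNA none of the 10 targets was called in any of the 5 comparisons (0.0172% of genes called for genotype in males and in females, 0.023% with the sexes joined, 0% by genotype and sex, 0.42% by sex). At an unadjusted p under 0.05 was 1 target in males, none in females, 1 with the sexes joined, 1 by genotype and sex and none by sex. The share of all genes at that level is not given here, so these counts do not set the targets apart. In males the target was Bace1, which encodes the beta-secretase that cleaves the amyloid precursor protein and is a reported target of miR-298. Its signal was 2589 and 2199 in WT males and 4180.2, 3313 and 3104 in humanized males, a difference of 0.55 ± 0.16 (limma adjusted p = 0.396) that rests on 2 WT libraries. In these, the hepatocyte gene Alb was at 1021 in replicate 4 and 129199.9 in replicate 5.

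**Figure D5:**
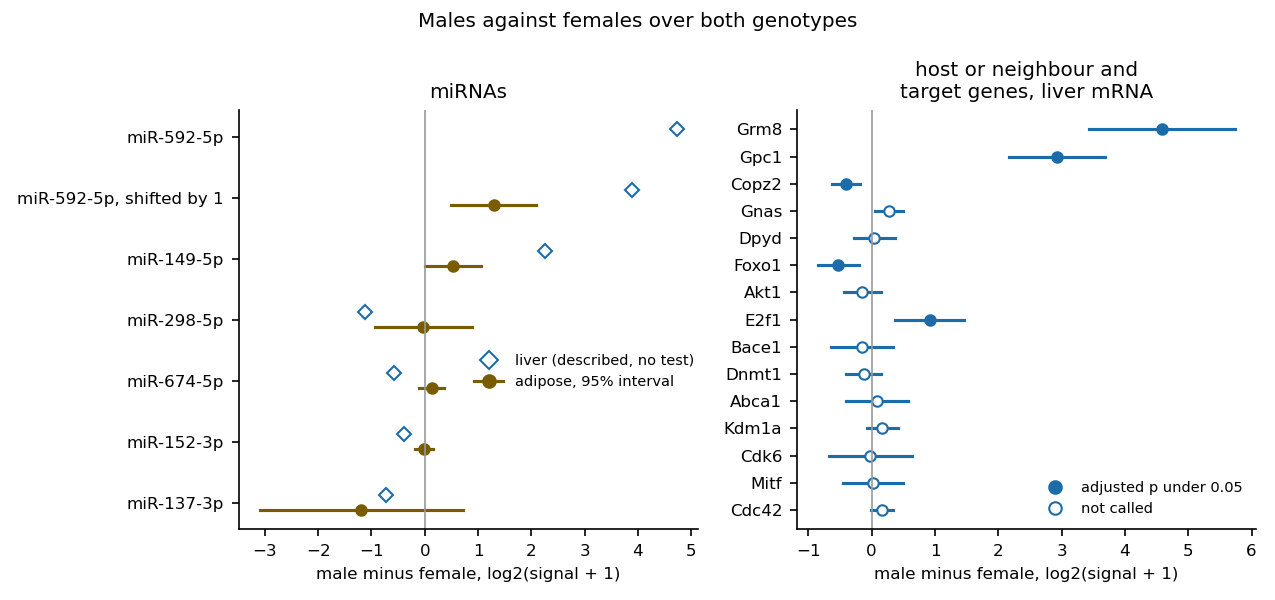
Male minus female differences of log2(signal + 1) over both genotypes. Left, the miRNAs in liver (diamonds, described without a test) and in adipose tissue (circles with 95% intervals), and right, host or neighbour and target genes in liver mRNA with 95% intervals (filled where limma adjusted p was under 0.05). Grm8 (4.59) and Gpc1 (2.93) stand out among the genes, as miR-592-5p and miR-149-5p do in liver.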

How the data were processed

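Small RNA libraries were made with a CleanTag kit and liver mRNA libraries after ribosomal depletion or polyA enrichment, per the labels' protocols. The authors deposited normalized signal per feature. The submitters' processing notes name DESeq2, STAR, Salmon, limma and mm9, with no versions and no roles. They also deposited small RNA tables on a regularized log2 scale after batch correction, used as an alternative. In the small RNA tables, all values under 1000 steps were whole multiples of 1 step (within 0.05) and none lay under 10 steps.

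On log2(signal + 1), features whose mean signal reached 10 entered a limma model (version 3.58.1, R 4.3.3, trended empirical Bayes) holding all 4 groups, 1 model per table. Covariates were the form of the library name (small RNA) and the labelled preparation (liver mRNA). Benjamini-Hochberg adjustment ran over all features, and the threshold was 0.05. The fit was tested on simulated data. Other processing used Python 3.11.15. The 6 members and all gene and marker lists were chosen with earlier results of these data known. The named rows were the members, their other arms and shifted forms, rows with the same seed, host or neighbour genes, reported targets (1 of which is not reported here) and the 3 most similar rows per member. Markers were matched by name, also under older names, and copies of one mature miRNA were represented by the most abundant row. Labels do not say that replicates of mRNA came from separate animals, so those p-values measure the spread between these libraries. Replicate numbers were not taken to pair samples. In liver and adipose small RNA, then liver and adipose mRNA, the median correlation of same-numbered libraries' deviations was -0.06, -0.07, -0.08 and 0.15. The lowest was under -0.1 in each. For libraries of different numbers the medians were 0.01, 0.01, 0.02 and -0.09. In adipose mRNA same-numbered libraries were thus somewhat more alike, so a pairing there is not excluded.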

Additional observations from a re-analysis of the deposited data

Results flagged for a closer look

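In 9 of 56 combinations of a miRNA row and a group, 1 library stood apart from the rest of its group. The threshold, Dixon's 95% critical value, lets about 1 in 20 groups of normally distributed values through by chance, but in 5 of the 9 every other library was listed at 0, where any listed value passes it. In liver these were WT female replicate 2 for miR-592-5p (13.3, all others listed at 0) and for its shifted form (324, the others 28.8 to 67.2), humanized female replicate 5 for miR-149-5p (55.8, the others 20.8 to 27.5) and humanized male replicate 5 for miR-298-5p (20.3, all others listed at 0). In adipose tissue they were WT male replicate 11 (17.9), humanized male replicate 13 (12.9) and WT female replicate 10 (7.13) for miR-592-5p, each the single library of its group in which it was listed. WT female replicate 10 also stood apart for the shifted form (166, the others 24.3 to 58.4), and humanized female replicate 6 for miR-137-3p (52.5). No genotype difference of a host or target gene in mRNA, or of a member in adipose tissue, differed between the sexes at a limma adjusted p under 0.05.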

How the results depend on the processing

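The number of members called in adipose tissue (0 in each comparison) was the same under every alternative run. The 77 liver small RNA features called between males and females became 48 on the deposited rlog scale, 33 without the name form as covariate, 38 with a replicate block, 120 in group-first libraries alone and 0 in tag-first libraries alone, and 50 (without humanized female replicate 4) to 135 (without WT female replicate 2) when 1 library was left out. For genotype in males 1 feature was called without humanized male replicate 5, and 0 with any other library left out. The 5 host and target genes called between the sexes in liver mRNA became 3 with no filter or with a replicate block and 2 to 5 with 1 library left out, at 3 or fewer without any library but humanized female 1 or WT male 2. Grm8 and Gpc1 were called in all 18 alternatives and Copz2 in 11. E2f1 missed the threshold after rescaling (0.87, limma adjusted p = 0.0746). Near-zero adipose differences changed sign: by sex, miR-298-5p (0.57 in tag-first libraries, 0.24 with a replicate block, up to 0.26 with 1 library left out, from -0.28) and miR-152-3p (0.033 in group-first libraries, -0.043 to 0.011 with 1 left out), and by genotype in females, miR-149-5p (0.014 with the block). Causes were not tested. Rescaling to equal totals shifted the median of all adipose features by 0.16 in males and 0.11 over both sexes. On the rlog scale the liver sex differences shrank to 0.47 (miR-592-5p), 2.40 (its shifted form), 0.88 (miR-149-5p) and -0.32 (miR-674-5p). The humanized minus WT difference of miR-298-5p in male liver shrank to -0.22. The planned edgeR and DESeq2 alternatives were not run, since the steps could not be taken as recovered reads. Values near 10 steps limit miR-298-5p and miR-592-5p in liver and miR-137-3p in adipose tissue.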
